A study of Mus musculus with 16 samples.

Results

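Gene expression was compared between cultures of P19CL6 cells that had spent 10 days in medium with 1% DMSO and cultures that had spent 8 days in it, an interval in which 34 of 57 tested sarcomere genes were called higher and 19 of 81 tested progenitor genes were called lower. P19CL6 is a mouse embryonal carcinoma line, a P19 subline that forms beating cardiac muscle in dimethyl sulfoxide (DMSO), and all cultures came from this single line. The members were the arrays whose titles give day 10 or day 8 of differentiation, 3 and 3 of the 16 arrays of the series, labelled A, B and C within each day. Both groups were plated in alpha-MEM with fetal bovine serum and DMSO, with new medium every 48 h, and RNA was taken from the whole culture, with no sort of cells named in the labels. The other 10 arrays, from growth without DMSO and from days 4, 6 and 12, entered the estimate of the spread between samples, the filter on dim probe sets, the choice of 1 probe set per gene and the comparison of arrays, and levels on those days are given only where named. The days differ in time in culture as well as in time with DMSO, which cannot be told apart here. The description covers the 34945 probe sets that name a single gene, of 45101 on the array. A probe set is a group of probes read together as 1 value, given here as a log2 signal, and a log2 value of 4 was used as the cutoff under which a probe set is called dim. Taking for each gene its probe set with the highest mean gave 10802 genes that lay above the cutoff on at least 2 of the 16 arrays, and these were tested.

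The sarcomere is the contractile unit of striated muscle: thick filaments of myosin, anchored at the M band, slide along thin filaments of actin that carry tropomyosin and the calcium-sensing troponin complex, and the thin filaments are anchored in the Z disc. In the mouse heart these proteins appear in the first differentiating cardiomyocytes under the control of factors such as Nkx2-5, Gata4, Mef2c and serum response factor with its partner myocardin. Progenitor cells carry a different programme, in which the RNA-binding protein Lin28a blocks the maturation of let-7 microRNAs and so spares let-7 targets such as Hmga2, Trim71, Mycn and Arid3a.

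Array controls overlapped between the groups, but 1 array stood apart. Between 40.4 and 41.3% of probe sets lay above the cutoff on the 6 arrays, and the 3′ minus 5′ differences of the Actb control ran from 0.74 to 1.33 log2 on day 10 and from 0.81 to 1.02 on day 8. Day 8 replicate A correlated at r = 0.990 and 0.992 with the day 6 arrays, against 0.967 and 0.956 with day 8 replicates B and C, which correlated with each other at 0.987 (Pearson, across the probe sets of the 10802 genes tested). With the day 10 arrays it correlated at 0.90 to 0.917, and day 8 replicates B and C at 0.941 to 0.967. Most results below are therefore given with this array and, as a second value, without it. The design text calls the samples independent. The p-values rest on 1 variance per gene, estimated within the 6 groups of all 16 arrays. They do not measure the spread of the day 8 and day 10 arrays alone.

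Day 10 differed from day 8 in 844 genes, 7.81% of those tested. A gene is called here at a Benjamini-Hochberg adjusted p under 0.05 in limma and a difference of at least 1 log2. Of the calls, 499 were higher on day 10 (4.62%) and 345 were lower (3.19%). Without day 8 replicate A the calls were 626 (5.8%), of which 377 were higher (3.49%) and 249 lower (2.31%). Both fits shared 572 calls, 366 higher and 206 lower, and 0 genes were called in opposite directions. Large rises outnumbered large falls: 70 genes differed by +3 log2 or more and 4 by −3 or less (40 and 4 without replicate A), against a median over all genes of −0.04. With every single-gene probe set tested, 4.12% were called higher and 2.84% lower, or 2.87 and 1.75% without replicate A. Scaled to a common median, 65.1% of the calls were higher, against 59.1% as deposited. A fit of the 6 arrays alone, with its fewer degrees of freedom, called 218 genes higher and 150 lower, and of the 136 called genes that the naming rule selects it kept 56. The plot of all genes shows most sarcomere genes on its right arm, while the progenitor genes lie around 0 with a tail to the left.

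**Figure D1:**
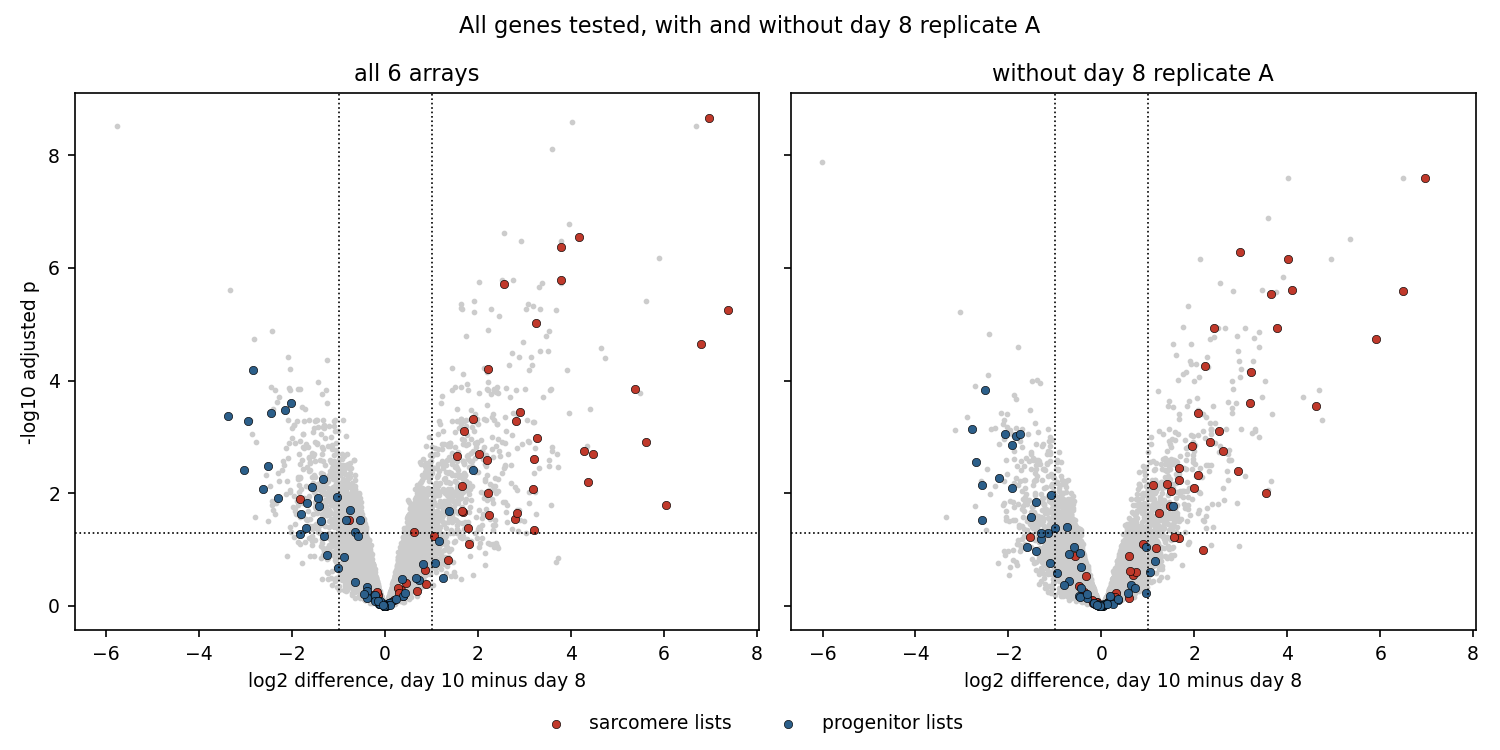
Log2 difference, day 10 minus day 8 (x axis), against −log10 of the adjusted p (y axis) for the 10802 genes tested, with all 6 arrays (left panel) and without day 8 replicate A (right panel); dotted lines mark 1 log2 and an adjusted p of 0.05. Sarcomere genes (red) lie mostly to the right, 34 called higher in the left panel and 29 in the right, and progenitor genes (blue) lie on both sides near 0 with a tail to the left, 19 called lower in the left panel and 15 in the right.

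The genes that mark the interval separated the days without overlap. So did many others: with values under the cutoff set to it, every day 10 array lay above every day 8 array in 14.1% of all genes. In 18.1% every day 10 array lay below. Actc1, cardiac alpha-actin of the thin filament, read 12.06, 12.20 and 11.87 on day 10, against 2.88, 4.90 and 6.18 on day 8 (replicates A, B and C, log2 signal). Its means were 12.04 ± 0.17 on day 10 and 4.65 ± 1.66 on day 8 (SD, n = 3 each), a difference of 7.39 (SE 0.62, limma adjusted p = 5.49e-06), and 6.50 without day 8 replicate A (adjusted p = 2.55e-06). Day 10 arrays agreed closely and the day 8 arrays spread over more than 3 log2, so the size of the rise depends on the day 8 culture chosen. Myh6, the alpha-myosin heavy chain, read 11.84, 12.13 and 10.99 on day 10, against 3.07, 4.48 and 7.0 on day 8. The difference was 6.80 (SE 0.66, adjusted p = 2.28e-05) with all arrays and 5.91 without day 8 replicate A (adjusted p = 1.81e-05), and its other probe set gave 4.17. Lin28a ran the other way, with 6.14, 6.32 and 7.62 on day 10, against 11.24, 9.90 and 9.06 on day 8. It fell by 3.37 log2 (SE 0.46, adjusted p = 0.000423), or by 2.79 without day 8 replicate A (adjusted p = 0.00072), and stayed above the cutoff on every day 10 array. Tdo2, the hepatic and decidual tryptophan 2,3-dioxygenase, read 2.52, 2.68 and 2.55 on day 10, against 7.87, 8.12 and 9.07 on day 8. It fell by 5.77 log2 (SE 0.23, adjusted p = 3.03e-09), or by 6.01 without replicate A, and with all day 10 arrays dim it was at least 20.4-fold lower there. The arrays are bulk samples, in which fewer cells of a type and less RNA per cell cannot be told apart.

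**Figure D2:**
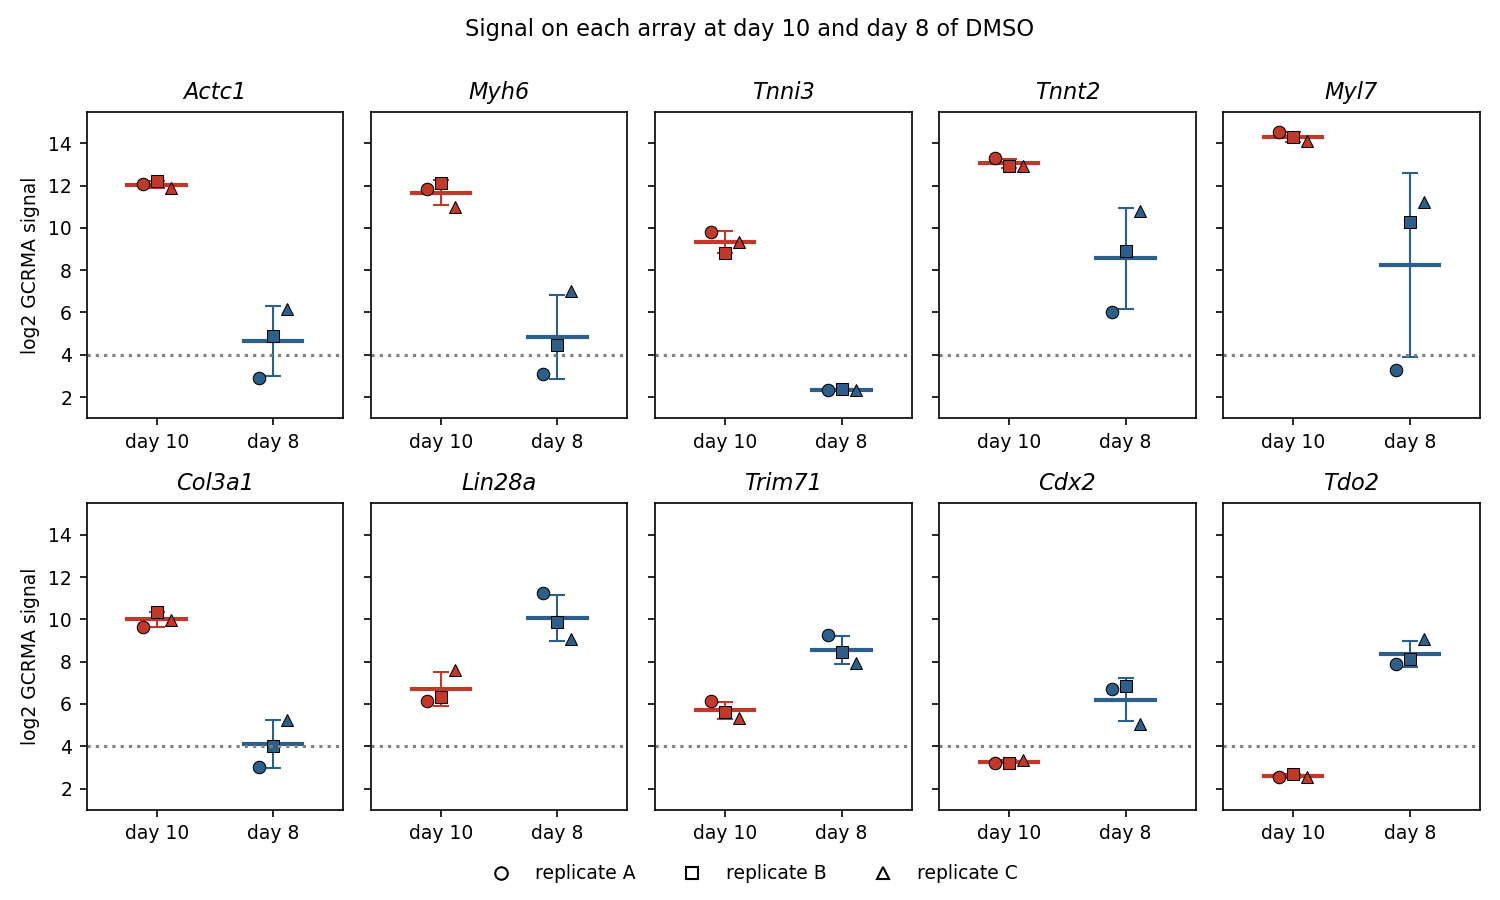
Log2 signal of 10 genes (y axis) in day 10 cultures (left) and day 8 cultures (right); points are arrays (circle A, square B, triangle C), the bar is the mean, the error bar is the SD (n = 3 each) and the dotted line is the cutoff of 4. Day 10 arrays sit above all day 8 arrays for Actc1, Myh6, Tnni3, Tnnt2, Myl7 and Col3a1 and below them for Lin28a, Trim71, Cdx2 and Tdo2, and the circle of day 8 replicate A is the lowest of its group for Actc1, Myh6, Tnnt2, Myl7 and Col3a1. All 10 genes are among the largest changes named by a rule that requires days without overlap, so the figure is no test of that separation.

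Of 90 genes listed for the sarcomere, 57 were tested, 28 stayed dim and 5 were not analysed here. Among those tested 34 rose on day 10 and 1 fell, with a median difference of 1.81, against 4.62% called higher, 3.19% called lower and a median of −0.04 over all genes. Without day 8 replicate A, 29 rose and 0 fell, with a median of 1.47. In the fit of the 6 arrays alone 14 of the 57 were called higher, against 218 of all 10802 genes in that fit. The 14 were Actc1, Myh6, Tnni3, Myl1, Myl3, Acta1, Tnnt1, Tpm1, Actn2, Smpx, Hspb3, Hspb7, Fhl2 and Smyd1. Day 10 arrays carried 50, 53 and 53 of the 57 genes above the cutoff, against 29, 42 and 45 on day 8 in the order A, B and C. Day 8 replicate A was the lowest of its group for 46 of the 57 (80.7%), which holds for 39.1% of all genes. Of the 34 genes that rose, 8 were dim on all 3 day 8 arrays, 11 were dim there on replicate A and above the cutoff on B and C, and 13 were above it on all 3. Since a gene can pass the filter through its day 10 and 12 arrays alone, those were counted apart: 7 of the 57 did so, and all 7 were called higher. Of the other 50, 27 were called higher, 54%, against 3.91% of all other genes.

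**Figure D3:**
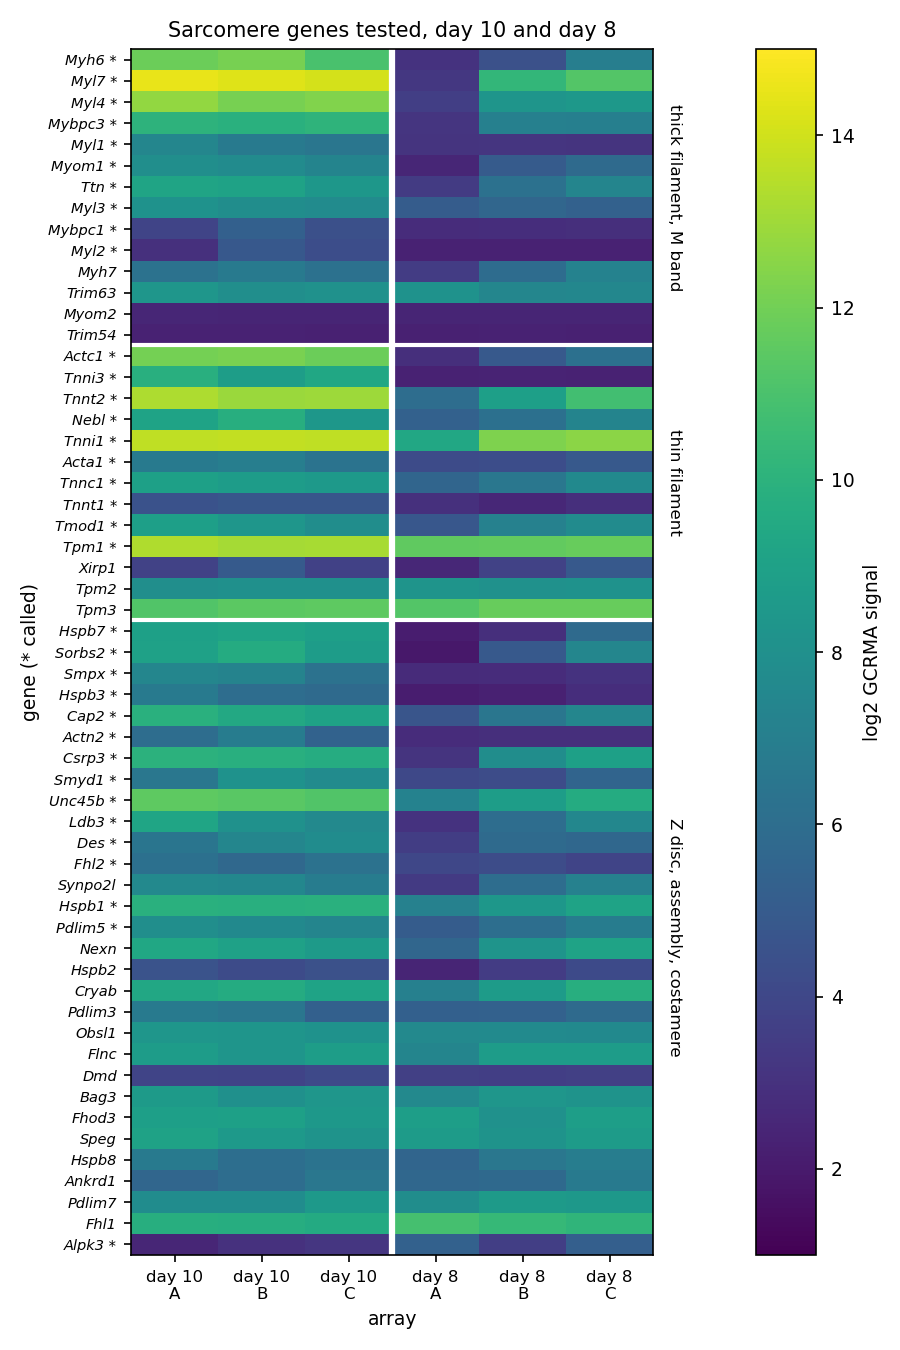
Heat map of log2 signal (colour scale) for the tested sarcomere genes (rows) on each array, day 10 A, B and C to the left of day 8 A, B and C; an asterisk marks genes called higher or lower with all arrays. Many rows are bright across day 10, darkest in the day 8 A column and intermediate in day 8 B and C, as in Actc1 with 2.88, 4.90 and 6.18 on day 8.

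Of the thick filament and M band 10 of 14 tested genes rose (9 without day 8 replicate A), with a median of 2.88 and 2.15 without it. Myl7, the atrial regulatory light chain, read 14.52, 14.30 and 14.08 on day 10, against 3.27, 10.27 and 11.23 on day 8. On day 8 it was dim in 1 culture and far above the cutoff in both others. Its difference was 6.04 (SE 1.50, adjusted p = 0.0162), 3.55 without day 8 replicate A (adjusted p = 0.00976) and 5.93 without day 10 replicate A, where the call was lost (adjusted p = 0.0506). It was also lost in the fit of the 6 arrays alone (adjusted p = 0.132). Myl4, the atrial essential light chain, had the same shape, with 12.73, 12.12 and 12.35 on day 10, against 3.60, 8.28 and 8.48 on day 8. It rose by 5.61 (SE 0.89, adjusted p = 0.00121), and by 4.02 without day 8 replicate A (adjusted p = 7.01e-07). Mybpc3, the cardiac myosin-binding protein C, read 10.06, 9.91 and 10.11 on day 10, against 3.16, 7.08 and 7.03 on day 8, a rise of 4.27 (2.97 without replicate A). The giant spring protein titin, Ttn, rose by 3.19 (adjusted p = 0.00838) and by 2.07 without day 8 replicate A, with 9.17, 9.09 and 8.41 on day 10, against 3.46, 6.25 and 7.39 on day 8. One of its 3 probe sets gave −0.01. The M-band protein Myom1 rose by 3.20, and by 2.22 without replicate A.

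Among the other thick filament genes the day 8 levels differed. Myl1, a light chain shared by fast skeletal and embryonic cardiac muscle, read 7.40, 6.78 and 6.52 on day 10, against 3.08, 3.15 and 3.11 on day 8. It rose by 3.79 (SE 0.27, adjusted p = 1.66e-06; 3.77 without replicate A), at least 7.47-fold over the cutoff. Myl3, the ventricular essential light chain, was already above the cutoff and rose by 2.57, with 8.12, 7.87 and 7.74 on day 10, against 5.07, 5.60 and 5.36 on day 8 (2.43 without replicate A). Both other probe sets of Myl3 were called at 5.50 and 5.21. Its ventricular partner Myl2 lagged, with 2.93, 4.84 and 4.29 on day 10, against 2.32, 2.36 and 2.32 on day 8. The Myl2 difference of 1.69 (adjusted p = 0.0215) lost its call without day 8 replicate A (1.68, adjusted p = 0.0618), without day 10 replicate B (1.28, adjusted p = 0.0839) and without day 10 replicate C (1.55, adjusted p = 0.0649). Myh7, the beta-myosin heavy chain, did not pass the test, with 6.29, 6.77 and 6.21 on day 10, against 3.48, 5.94 and 7.19 on day 8 (0.89, adjusted p = 0.4; −0.14 without replicate A). Nor did Trim63, a muscle ubiquitin ligase, which read 8.37, 7.94 and 8.06 on day 10, against 8.13, 7.41 and 7.47 on day 8. Among the genes dim on too many arrays to be tested were the skeletal and developmental myosins Myh3, Myh8 and Myh7b and the binding proteins Mybpc2 and Mybph.

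In the thin filament 10 of 13 tested genes rose (9 without day 8 replicate A), with a median of 2.19 and 1.68 without it. Tnni3, the adult cardiac inhibitory troponin, rose with little spread between replicates: 9.82, 8.82 and 9.35 on day 10, against 2.34, 2.38 and 2.34 on day 8. All 3 day 8 arrays were dim, the difference was 6.98 (SE 0.25, adjusted p = 2.17e-09) and day 10 was at least 40.2-fold higher. Its fetal counterpart Tnni1 was bright already, at 13.65, 13.69 and 13.67 on day 10, against 9.39, 12.32 and 12.56 on day 8. That rise of 2.25 (adjusted p = 0.0246) was 1.23 without day 8 replicate A (adjusted p = 0.0222), and the call was lost without day 10 replicate A (2.26, adjusted p = 0.0633), B (2.24, adjusted p = 0.0613) or C (2.24, adjusted p = 0.0575). Tnnt2, the cardiac troponin T that ties the complex to tropomyosin, read 13.29, 12.90 and 12.94 on day 10, against 6.03, 8.90 and 10.77 on day 8. It rose by 4.47 (SE 0.77, adjusted p = 0.00199), and by 3.21 without replicate A (adjusted p = 0.000251), and missed the threshold in the fit of the 6 arrays alone (adjusted p = 0.0754). The calcium-binding subunit Tnnc1 rose by 2.19, and by 1.68 without replicate A. Tnnt1, the slow skeletal troponin T, was dim on day 8 and at least 1.6-fold higher on day 10, where it read 4.53, 4.75 and 4.75 (1.89; 1.96 without replicate A).

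Of the actins and tropomyosins, Acta1, skeletal alpha-actin, read 6.76, 6.97 and 6.35 on day 10, against 4.20, 4.31 and 4.91 on day 8, a rise of 2.22 (SE 0.24, adjusted p = 6.23e-05; 2.08 without replicate A). Tpm1, the tropomyosin of cardiac muscle, read 13.31, 13.13 and 13.16 on day 10, against 11.60, 11.66 and 11.74 on day 8. Neither day spread by more than 0.2 log2, and the rise was 1.54 (adjusted p = 0.00222) and of 1.50 without replicate A, although the 3 other probe sets of Tpm1 gave 0.11, 0.32 and 0.03. The tropomyosins Tpm2 and Tpm3, also used outside muscle, differed by −0.15 and −0.18 without a call, but 1 other probe set of Tpm3 was called higher at 2.62 (limma adjusted p = 5.08e-05 over every single-gene probe set). Nebl, the cardiac nebulin relative nebulette, rose by 2.81 on its brightest probe set (2.34 without replicate A), with 0.55 and 1.09 on its others. Tmod1, which caps the pointed end of the thin filament, rose by 1.79 (adjusted p = 0.041), and its call was lost without day 8 replicate A (0.90, adjusted p = 0.0793), day 10 replicate A (1.52, adjusted p = 0.137) or day 10 replicate B (1.81, adjusted p = 0.0854).

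The promoters of these genes are shown because serum response factor, which binds the CArG box, and other muscle factors are known to act there. The windows run from 250 bases before to 50 after the start of the gene, on the gene strand, from RefSeq on GRCm38.p6, with 1 window per gene. They are those of Actc1 (chr2:114052826-114053125, minus strand), Acta1 (chr8:123894726-123895025, minus), Myl7 (chr11:5898733-5899032, minus), Myl3 (chr9:110763428-110763727, plus), Myh6 (chr14:54966558-54966857, minus) and, as a gene that fell, Lin28a (chr4:134018767-134019066, minus). Capitals mark every match to the motifs searched. These were the CArG box and the MEF2 site, the core promoter motif TATAAA on the gene strand and, on either strand, the motif AGATAA known for the family of zinc finger factors that holds Gata4. On either strand too, CATTCC was searched, which factors of the TEAD family bind. The last motif, also on either strand, was ATCAAAG of the factors that act in Wnt signalling. No matches overlap in these windows.
Actc1: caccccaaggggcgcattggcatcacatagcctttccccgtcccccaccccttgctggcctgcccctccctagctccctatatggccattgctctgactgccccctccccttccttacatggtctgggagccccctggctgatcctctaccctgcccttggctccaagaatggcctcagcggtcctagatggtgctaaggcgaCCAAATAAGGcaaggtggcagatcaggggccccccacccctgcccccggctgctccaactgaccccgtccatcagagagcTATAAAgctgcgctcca
Acta1: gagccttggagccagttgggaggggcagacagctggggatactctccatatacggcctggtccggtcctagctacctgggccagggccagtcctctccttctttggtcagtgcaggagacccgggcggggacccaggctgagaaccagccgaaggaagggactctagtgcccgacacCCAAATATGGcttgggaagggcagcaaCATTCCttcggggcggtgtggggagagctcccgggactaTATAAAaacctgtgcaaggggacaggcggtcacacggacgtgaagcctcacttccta
Myl7: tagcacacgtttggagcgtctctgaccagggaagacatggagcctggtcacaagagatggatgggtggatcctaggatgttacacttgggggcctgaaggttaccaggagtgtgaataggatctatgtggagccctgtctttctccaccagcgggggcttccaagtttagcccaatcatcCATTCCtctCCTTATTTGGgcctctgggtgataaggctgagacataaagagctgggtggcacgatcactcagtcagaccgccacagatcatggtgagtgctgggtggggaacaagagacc
Myl3: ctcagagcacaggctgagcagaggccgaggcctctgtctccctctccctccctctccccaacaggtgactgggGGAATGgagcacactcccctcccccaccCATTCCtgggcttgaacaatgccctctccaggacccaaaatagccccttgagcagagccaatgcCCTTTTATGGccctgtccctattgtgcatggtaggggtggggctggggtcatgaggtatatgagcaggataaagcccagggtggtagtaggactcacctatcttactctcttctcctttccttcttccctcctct
Myh6: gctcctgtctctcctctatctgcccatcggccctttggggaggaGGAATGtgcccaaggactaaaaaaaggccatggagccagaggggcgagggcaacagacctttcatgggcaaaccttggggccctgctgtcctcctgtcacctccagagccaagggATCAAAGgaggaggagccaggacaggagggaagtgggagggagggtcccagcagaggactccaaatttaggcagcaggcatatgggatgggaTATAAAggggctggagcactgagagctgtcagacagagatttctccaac
Lin28a: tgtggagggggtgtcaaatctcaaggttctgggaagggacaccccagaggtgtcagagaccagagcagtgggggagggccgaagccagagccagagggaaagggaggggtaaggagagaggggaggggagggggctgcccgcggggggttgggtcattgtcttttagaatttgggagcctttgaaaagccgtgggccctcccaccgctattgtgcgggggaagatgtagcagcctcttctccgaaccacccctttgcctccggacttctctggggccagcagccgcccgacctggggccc

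A CArG box lay at −47 to −38 in Actc1, −73 to −64 in Acta1, −61 to −52 in Myl7 and −85 to −76 in Myl3, counted from the start. The Myh6 window held no CArG box but had a match to TATAAA just after the start, one to CATTCC on the other strand and one to the motif of the Wnt factors, and the Lin28a window held none of the 6 motifs. All 34 sarcomere genes that rose had a window, and 7 of these, 20.6%, held a CArG box: Acta1, Actc1, Fhl2, Ldb3, Myl3, Myl7 and Myom1. Of all 8794 tested genes with a window, 121 held one (1.38%), and of the 395 genes called higher 4.05% did. The MEF2 site was in 11.8% of the sarcomere windows and in 1.55% of all windows, CATTCC in 38.2 and 11.6%, AGATAA in 17.6 and 5.73%, TATAAA in 14.7 and 3.98% and ATCAAAG in 2.94 and 2.52%. The sarcomere windows had a median GC content of 55.3%, against 61.7% over all windows. Of the 14 windows of progenitor genes that fell, 1 held a CArG box (Arid3b), 1 TATAAA (Cyp26a1) and 1 ATCAAAG (Nrp2), and their median GC content was 62.8%. A match describes letters in the window and is no measure of binding.

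The Z disc, assembly factors and costamere, which couples the outer sarcomeres to the membrane, were less uniform: 14 of 30 tested genes rose and 1 fell, with a median of 1.50. Without day 8 replicate A, 11 rose and 0 fell, with a median of 0.68. Hspb7, a small heat shock protein of the cardiac thin filament and Z disc, rose most. It read 8.97, 9.10 and 8.92 on day 10, against 2.10, 2.91 and 5.86 on day 8 (5.37, SE 0.64, adjusted p = 0.000139; 4.61 without replicate A), and its other probe sets gave 3.56 and 4.02. Actn2, the alpha-actinin that cross-links thin filaments in the Z disc, read 6.03, 6.85 and 5.43 on day 10, against 2.79, 2.89 and 2.88 on day 8. It was dim in all 3 day 8 cultures and at least 4.29-fold higher on day 10 (3.25, SE 0.29, adjusted p = 9.33e-06; 3.22 without replicate A). Smpx, a small costamere protein, and Hspb3 were also dim on every day 8 array and at least 8.00-fold and 4.62-fold higher on day 10, with differences of 4.17 and 3.79, or 4.10 and 3.65 without replicate A. The scaffold Sorbs2 rose by 4.37 (2.94 without replicate A, and 2.63 on another called probe set), with 9.0, 9.64 and 8.74 on day 10, against 1.89, 4.91 and 7.45 on day 8. Cap2, an actin-binding protein, rose by 3.28 (2.53 without replicate A).

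Some Z-disc genes were well above the cutoff in 2 of the day 8 cultures. Csrp3, the muscle LIM protein, read 10.00, 9.86 and 9.69 on day 10, against 3.10, 7.89 and 8.97 on day 8. Its difference of 3.20 (adjusted p = 0.0443) was 1.42 without day 8 replicate A (adjusted p = 0.00682), and the call was lost without day 10 replicate A (3.12, adjusted p = 0.107), B (3.19, adjusted p = 0.0937) or C (3.28, adjusted p = 0.0847). Ldb3, known as Cypher, rose by 2.80 (adjusted p = 0.0291), and its call was lost without day 8 replicate A (1.57, adjusted p = 0.0604), day 10 replicate A (2.33, adjusted p = 0.107) or day 10 replicate B (2.91, adjusted p = 0.0589). Other probe sets of Ldb3 gave 0.23 and 0.96, with no call. The muscle intermediate filament desmin, Des, rose by 2.22, and by 1.47 without day 8 replicate A, and was above the cutoff on day 8 in B and C at 5.86 and 5.65. Both factors that fold and modify myosin rose. Smyd1, a muscle methyltransferase, read 6.55, 8.14 and 7.77 on day 10, against 4.02, 4.23 and 5.51 on day 8 (2.90; 2.61 without replicate A; 3.52 and 4.00 on other called probe sets). Unc45b, the myosin chaperone, rose by 2.84 (adjusted p = 0.0224), and its call was lost without day 8 replicate A (2.19, adjusted p = 0.102), day 10 replicate A (2.78, adjusted p = 0.0644) or day 10 replicate B (2.82, adjusted p = 0.0576). Pdlim5 behaved alike, with 1.65 (adjusted p = 0.021) and its call lost without day 8 replicate A (1.18, adjusted p = 0.0929), day 10 replicate A (1.51, adjusted p = 0.0721) or day 10 replicate B (1.64, adjusted p = 0.0538), and 2 of its 7 probe sets were called. Fhl2, a LIM protein, and Hspb1 rose by 2.03 and 1.66, or by 1.99 and 1.11 without replicate A.

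Other members of the list did not pass the test or went down. The chaperone Cryab, at 9.39, 9.60 and 9.14 on day 10, overlapped day 8, at 7.09, 8.70 and 9.78 (0.85; 0.13 without replicate A), and the titin-linked stress gene Ankrd1 differed by −0.01. Fhl1, with 9.79, 9.74 and 9.57 on day 10, against 10.87, 10.37 and 10.17 on day 8, was lower on every array but by less than 1 log2 (−0.77, adjusted p = 0.03). Alpk3, a muscle alpha-kinase, fell by 1.83 (adjusted p = 0.0127), with 2.48, 2.98 and 3.24 on day 10, against 5.33, 3.62 and 5.23 on day 8. Its call was lost without day 8 replicate A (−1.53, adjusted p = 0.06) or day 10 replicate A (−1.62, adjusted p = 0.0538). Among those dim on too many arrays to be tested were Tcap, Myot, Mypn and the calsarcins Myoz1, Myoz2 and Myoz3. In the sarcomere and progenitor lists together, 56 members were called, 28 of them with more than 1 tested probe set; 16 of these had a probe set that was not called, and 0 had probe sets called in opposite directions.

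Genes that couple excitation to contraction changed in part. For this list and those that follow, the shares over all genes were 4.62% called higher and 3.19% lower. Without day 8 replicate A they were 3.49 and 2.31%. Of 17 tested genes of calcium handling in the sarcoplasmic reticulum, the calcium store of muscle, 5 rose and 0 fell (4 and 0 without day 8 replicate A), with a median of 0.61 and 0.42 without it. Pln, phospholamban, the inhibitor of the calcium pump, read 9.63, 10.57 and 9.54 on day 10, against 2.97, 3.60 and 6.75 on day 8 (5.48, SE 0.67, adjusted p = 0.000163; 4.74 without replicate A). Trdn, triadin of the release channel complex, was dim on all day 8 arrays and at least 5.01-fold higher on day 10, where it read 7.07, 5.86 and 6.04 (3.78; 3.77 without replicate A). Other probe sets of Trdn gave 0.002, 0.30 and 0.81, with no call. Hrc, a calcium-binding protein of the store, rose by 3.52 (2.92 without replicate A). Slc8a1, the sodium-calcium exchanger, read 3.95, 8.17 and 6.99 on day 10, against 2.56, 2.85 and 3.98 on day 8. The groups of the exchanger overlapped, 2 other called probe sets gave 1.83 and 1.36, and its call (3.24, adjusted p = 0.0231) was lost without day 8 replicate A (2.96, adjusted p = 0.0852), day 8 replicate B (3.10, adjusted p = 0.0603), day 10 replicate B (2.34, adjusted p = 0.0883) or day 10 replicate C (2.93, adjusted p = 0.0718).

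Of 13 tested cardiac channels, connexins, receptors and hormones, 6 rose and 0 fell (4 and 0 without day 8 replicate A), with a median of 1.20 and 1.06 without it, and 18 of the 31 listed were dim or not analysed here. The T-type calcium channel Cacna1h read 7.31, 7.62 and 7.29 on day 10, against 4.04, 5.09 and 5.02 on day 8 (2.69; 2.35 without replicate A). The repolarizing potassium channel Kcnh2 read 8.54, 8.04 and 8.49 on day 10, against 5.59, 6.76 and 6.76 on day 8 (1.99; 1.60 without replicate A). Both channels were above the cutoff on all day 8 arrays. The Popeye proteins Popdc2 and Bves rose by 2.83 and 1.47. The Popdc2 call was lost without day 8 replicate A (1.88, adjusted p = 0.0724), day 8 replicate B (2.54, adjusted p = 0.0626) or day 10 replicate B (2.55, adjusted p = 0.0672), and the Bves call without day 8 replicate A (1.33, adjusted p = 0.0565) or day 10 replicate A (1.06, adjusted p = 0.0528).

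Muscle energy genes rose in 9 of 24 tested, with 0 falls and a median of 0.79 (7 and a median of 0.80 without day 8 replicate A). Pgam2, the muscle phosphoglycerate mutase of glycolysis, read 12.07, 11.31 and 11.06 on day 10, against 5.74, 7.34 and 8.33 on day 8 (4.34; 3.64 without replicate A). The fatty acid transporter Cd36 read 7.28, 7.44 and 7.28 on day 10, against 2.86, 3.35 and 4.41 on day 8 (3.79; 3.45 without replicate A). Cox7a1, the muscle isoform of a cytochrome c oxidase subunit, was dim on all day 8 arrays and at least 5.98-fold higher on day 10 (3.38; 3.39 without replicate A). Ppargc1a, the coactivator of mitochondrial biogenesis, rose by 2.59 (2.32 without replicate A).

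Cardiac transcription factors rose in 11 of 28 tested and fell in 1, with a median of 0.84 (9, 1 and 0.63 without day 8 replicate A). Nkx2-5, the cardiac homeobox factor, read 5.25, 3.89 and 5.12 on day 10, against 2.30, 2.42 and 2.38 on day 8 (2.39, adjusted p = 0.000162; 2.36 without replicate A), at least 1.69-fold over the cutoff. Shox2 and Tbx18, factors of the sinus venosus from which the pacemaker forms, read 7.27, 5.68 and 4.67, and 7.06, 5.19 and 4.49 on day 10, and both were dim on all day 8 arrays. They were at least 3.66-fold and 2.99-fold higher on day 10, with differences of 3.39 and 2.59, or 3.39 and 2.39 without replicate A. Hand2, a factor of the heart fields, was bright on both days, at 12.21, 12.33 and 12.13 on day 10, against 6.57, 10.16 and 11.25 on day 8. Its difference of 2.90 (adjusted p = 0.0295) was 1.52 without day 8 replicate A (adjusted p = 0.0244), and the call was lost without day 10 replicate A (2.90, adjusted p = 0.0726), B (2.84, adjusted p = 0.0728) or C (2.94, adjusted p = 0.0616). The single fall was Irx3, an Iroquois factor, at 5.59, 6.65 and 7.07 on day 10, against 7.58, 9.43 and 9.75 on day 8 (−2.48, adjusted p = 0.00751; −3.15 without replicate A).

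The progenitor lists moved in a smaller part. Of 105 genes listed, 81 were tested, 18 were dim and 6 were not analysed here; 19 fell and 2 rose, against 3.19% called lower and 4.62% called higher over all genes. Their median was −0.12, close to that of all genes, and 62 of the 81 differences were negative, against 5941 of 10802 over all genes. Without day 8 replicate A, 15 fell and 1 rose, with a median of −0.09. In the fit of the 6 arrays alone 9 of the 81 were called lower, against 150 of all 10802 genes in that fit. The 9 were Lin28a, Trim71, Mycn, Arid3a, Sall1, Sall4, Cdx2, Aplnr and Nrp2. Many of the genes were dim by day 8: 34 of the 81 on all day 8 arrays and 38 on all day 10 arrays. Over all 10802 genes these counts were 941 and 816. Day 8 replicate A was the highest of its group for 14 of the 19 genes that fell. The same held for 39 of the 81 tested (48.1%) and for 38.1% of all genes.

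**Figure D4:**
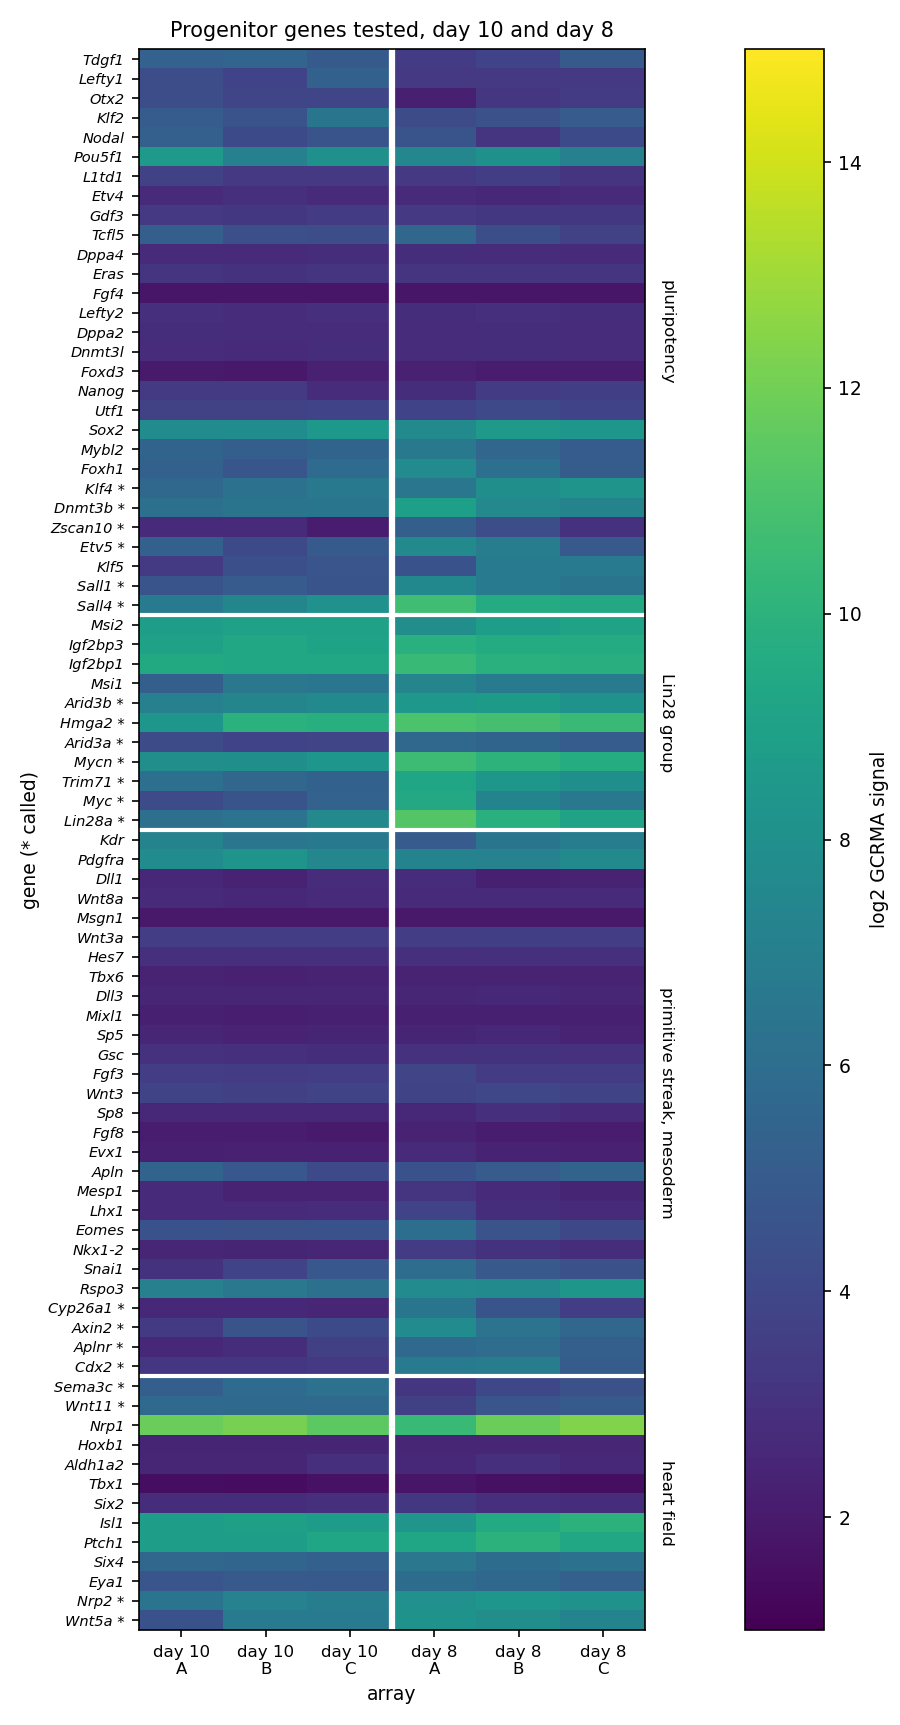
Heat map of log2 signal (colour scale) for the tested progenitor genes (rows) on each array, day 10 A, B and C to the left of day 8 A, B and C; an asterisk marks genes called higher or lower with all arrays. Most rows look alike on both days, and the marked falls, such as Lin28a with 6.14, 6.32 and 7.62 on day 10 and 11.24, 9.90 and 9.06 on day 8, are often brightest in the day 8 A column.

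In the list of Lin28, let-7 targets and oncofetal RNA-binding proteins 7 of 11 tested genes fell and 0 rose (5 and 0 without day 8 replicate A), with a median of −1.42 and −1.30 without it. Trim71, a let-7 target that represses messenger RNAs in stem cells, read 6.14, 5.63 and 5.33 on day 10, against 9.26, 8.44 and 7.96 on day 8. It fell by 2.85 (SE 0.31, adjusted p = 6.48e-05), or by 2.50 without replicate A. The oncogene Myc read 4.26, 4.64 and 5.41 on day 10, against 9.47, 7.31 and 6.63 on day 8, and its relative Mycn 7.91, 7.99 and 8.35 on day 10, against 10.62, 10.03 and 9.66 on day 8. Both were lower on every day 10 array, Myc by 3.03 log2 (adjusted p = 0.0038; −2.20 without replicate A) and Mycn by 2.02 (adjusted p = 0.000245; −1.76 without replicate A), though 1 of 3 probe sets of Mycn gave 0.04. Hmga2, a chromatin protein and let-7 target, read 8.38, 9.96 and 9.84 on day 10, against 11.05, 10.88 and 10.51 on day 8 (−1.42, adjusted p = 0.017). Its call was lost without day 8 replicate A (−1.31, adjusted p = 0.0658) or day 10 replicate A (−0.92, adjusted p = 0.0452). Arid3a and Arid3b, DNA-binding proteins of the ARID family, fell by 1.43 and 1.03. The Arid3a call was lost without day 8 replicate A (−1.30, adjusted p = 0.0507), and the Arid3b call without day 8 replicate B (−0.93) or day 10 replicate A (−0.88, adjusted p = 0.0517). The insulin-like growth factor 2 messenger-binding proteins Igf2bp1 and Igf2bp3 were not called on the probe sets with the highest means, at −0.65 (adjusted p = 0.0483) and −0.54 (adjusted p = 0.03), or −0.44 and −0.46 without replicate A. Another probe set of each was called lower, Igf2bp1 at −1.01 (adjusted p = 0.0226 over every single-gene probe set) and Igf2bp3 at −1.13 (adjusted p = 0.0455). The RNA-binding protein Msi2 was at 0.37 without a call.

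Among pluripotency genes 6 of 29 tested fell and 0 rose (5 and 0 without day 8 replicate A), with a median of −0.02 in both fits, and the core factors were not among them. Pou5f1 (Oct4) read 8.59, 7.08 and 8.05 on day 10, against 7.46, 8.00 and 7.07 on day 8 (0.39, adjusted p = 0.67), and its mean level over the course was 14.3 in growth, 11.2 on day 4, 9.0 on day 6 and 9.2 on day 12. Nanog was dim on both days, and Sox2 differed by −0.19. The genes that fell included the zinc finger factors Sall4, at 6.81, 7.43 and 8.10 on day 10, against 10.68, 9.59 and 9.46 on day 8 (−2.46, adjusted p = 0.000371; −2.08 without replicate A), and Sall1 (−2.16; −1.84 without replicate A, and −0.65 on its other probe set). Dnmt3b, a de novo DNA methyltransferase, fell by 1.58, or by 1.08 without day 8 replicate A. Zscan10 fell by 1.68 (adjusted p = 0.0146), and its call was lost without day 8 replicate A (−1.15, adjusted p = 0.0503) or day 10 replicate C (−1.49, adjusted p = 0.0521). Etv5, an ETS factor downstream of FGF, fell by 1.69 (adjusted p = 0.0409), and its call was lost without day 8 replicate A (−1.11, adjusted p = 0.174), day 8 replicate B (−1.48, adjusted p = 0.114), day 10 replicate A (−1.93, adjusted p = 0.0545), B (−1.37, adjusted p = 0.136) or C (−1.77, adjusted p = 0.0718). Klf4 fell by 1.37 (adjusted p = 0.0307), and by more without day 8 replicate A (−1.91, adjusted p = 0.00142). The Klf4 call was lost without day 8 replicate B (−1.17, adjusted p = 0.0965) or C (−1.03, adjusted p = 0.0983) and without day 10 replicate A (−1.10, adjusted p = 0.117) or B (−1.40, adjusted p = 0.065). Klf5 was called only without day 8 replicate A (−2.57, adjusted p = 0.0071; −1.83 and adjusted p = 0.053 with it).

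Primitive streak and early mesoderm genes fell in 4 of 28 tested, with and without day 8 replicate A, and 0 rose. Cdx2, a caudal homeobox factor of the posterior embryo, read 3.21, 3.22 and 3.34 on day 10, against 6.69, 6.86 and 5.06 on day 8 (−2.95, SE 0.42, adjusted p = 0.000516; −2.71 without replicate A). All day 10 arrays were dim, and day 10 was at least 4.62-fold lower. Its second probe set gave −1.53 without a call. Aplnr, the apelin receptor of migrating mesoderm, read 2.61, 2.86 and 3.68 on day 10, against 5.79, 5.99 and 5.25 on day 8, at least 3.20-fold lower on day 10, with 0.07 on its other probe set. Axin2, a feedback inhibitor induced by Wnt signals, read 3.39, 4.60 and 4.12 on day 10, against 7.75, 6.32 and 5.60 on day 8 (−2.52, adjusted p = 0.00323; −1.92 without replicate A), with −0.12 on its other probe set. Cyp26a1, which degrades retinoic acid, was dim on day 10 and read 6.45, 4.64 and 3.53 on day 8 (−2.30, adjusted p = 0.0124), at least 1.83-fold lower, or 1.06-fold without replicate A. The earliest streak factors were dim on both days: Mixl1 and Mesp1, whose day 4 means were 12.0 and 11.9, and Tbx6, Evx1 and Msgn1. Eomes read 4.52, 4.50 and 4.53 on day 10 and 6.07, 4.59 and 4.05 on day 8, which overlap. The receptors Kdr and Pdgfra differed by 0.67 and 0.43, or 0.11 and 0.36 without replicate A, without a call.

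Second heart field genes, expressed in the progenitors that lengthen the heart tube, went both ways, 2 rising and 2 falling of 13 tested (1 and 1 without day 8 replicate A), with a median of −0.16 and −0.30 without it. Isl1, their defining factor, was bright on both days at 8.85, 8.95 and 8.74 on day 10, against 8.28, 9.57 and 10.02 on day 8, with no call (−0.44, adjusted p = 0.604; −0.95 without replicate A). Sema3c, a guidance molecule of the outflow tract, read 5.26, 5.89 and 6.22 on day 10, against 3.21, 4.05 and 4.47 on day 8 (1.88, adjusted p = 0.00383; 1.53 without replicate A). Wnt11, a non-canonical Wnt of the early heart, rose by 1.37 (adjusted p = 0.0204), and its call was lost without day 8 replicate A (0.97, adjusted p = 0.0881), day 10 replicate A (1.38, adjusted p = 0.054) or day 10 replicate B (1.34, adjusted p = 0.0558). Nrp2, a semaphorin co-receptor, read 6.39, 7.23 and 6.93 on day 10, against 8.05, 8.38 and 8.13 on day 8 (−1.34, adjusted p = 0.00562; −1.40 without replicate A). Wnt5a fell by 1.80 (adjusted p = 0.0233), and its call was lost without day 8 replicate A (−1.60, adjusted p = 0.0904) or B (−1.75, adjusted p = 0.0581).

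Genes that crossed the cutoff between the days were more often switched up than down. On all day 10 arrays 69 genes were above the cutoff that were called and dim on all day 8 arrays (0.639%), and 21 went the other way (0.194%), and without day 8 replicate A these were 67 (0.62%) and 23 (0.213%). The 90 together became 150 without day 8 replicate C. Beside Tnni3 and Smpx, the largest of the 69 were Pnoc, the precursor of the peptide nociceptin, Hbb-y, an embryonic beta-globin, and Pcp4l1. Pnoc read 9.92, 9.01 and 9.34 on day 10, against 2.35, 2.52 and 3.37 on day 8, at least 43-fold higher on day 10. Hbb-y read 6.18, 8.74 and 7.99 on day 10 and was dim on day 8, at least 12.5-fold higher, and its mean on day 12 was 3.8. Pcp4l1, a small calmodulin-regulator relative, was at least 4.28-fold higher at 6.06, 5.87 and 6.37. Of the genes that became dim, Tdo2 was the largest; its mean was 7.5 on day 6 and 2.5 in growth, on day 4 and on day 12. Tac2, the neurokinin B precursor, read 3.13, 3.28 and 3.07 on day 10, against 7.05, 6.26 and 6.16 on day 8, at least 5.62-fold lower (4.63-fold without replicate A). Hoxd3os1, an antisense transcript of the Hoxd cluster, was at least 3.63-fold lower (3.18-fold without replicate A). B4galnt2, a glycosyltransferase, was at least 4.74-fold lower (−2.80, adjusted p = 0.0269), and its call was lost without day 8 replicate B (−2.45, adjusted p = 0.0827) or C (−2.63, adjusted p = 0.0635) and without day 10 replicate A (−2.71, adjusted p = 0.0753) or B (−2.65, adjusted p = 0.0751).

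Outside the lists of heart muscle and progenitors, the largest rises included matrix and smooth muscle genes. Col3a1, a fibrillar collagen, read 9.66, 10.37 and 9.95 on day 10, against 3.00, 4.00 and 5.26 on day 8 (5.90, adjusted p = 6.57e-07; 5.36 without replicate A). Myl9, a light chain of smooth and non-muscle myosin, read 11.28, 11.01 and 10.68 on day 10, against 4.04, 5.65 and 6.47 on day 8 (5.60, adjusted p = 3.79e-06; 4.93 without replicate A). Grhl3, a grainyhead factor of surface epithelium, rose by 4.74, and Sh3bgr by 4.40, or by 4.33 and 3.52 without replicate A. Gsn, the actin-severing protein gelsolin, read 11.75, 11.83 and 11.71 on day 10, against 5.02, 9.42 and 10.14 on day 8. Alpk2, a cardiac alpha-kinase, read 8.78, 9.03 and 8.50 on day 10, against 2.23, 6.96 and 8.00 on day 8. Both owed much of their size to day 8 replicate A, with 3.57 and 3.04 with it and 1.98 and 1.29 without it, and the Alpk2 call was lost without day 10 replicate A (3.03, adjusted p = 0.111), B (2.91, adjusted p = 0.116) or C (3.17, adjusted p = 0.0882).

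The largest falls outside those lists were smaller. Lgals3, the lectin galectin-3, read 6.85, 7.46 and 8.06 on day 10, against 11.13, 10.31 and 9.53 on day 8 (−2.86; −2.46 without replicate A). Ptgis, prostacyclin synthase, read 6.05, 5.65 and 5.96 on day 10, against 9.86, 8.58 and 7.94 on day 8 (−2.91; −2.37 without replicate A). Vnn1, a pantetheinase, read 3.63, 4.50 and 3.43 on day 10, against 6.88, 6.12 and 7.02 on day 8 (−2.82; −2.72 without replicate A). These 3 genes were named by a rule that requires every day 10 array below every day 8 array, which held for 18.1% of all genes. Cdh6, a cadherin of kidney and neural crest, was read from its probe set with the highest mean. That probe set was called only without day 8 replicate A (−2.90, adjusted p = 0.00045; −1.83 and adjusted p = 0.078 with it). The other probe set of Cdh6 was called lower with all arrays (limma adjusted p = 0.0488 over every single-gene probe set). Slc22a23 fell by 2.35 (−2.71 without replicate A), and its call was lost without day 10 replicate A (−1.76, adjusted p = 0.0626). Genes whose fall was largest through day 8 replicate A included Rgs5, a regulator of G-protein signalling in pericytes, at −2.40 with it and −1.43 without it. Its call was lost without day 10 replicate A (−2.39, adjusted p = 0.0555) or C (−2.33, adjusted p = 0.0531). Other probe sets of Rgs5 gave −1.16 and −0.26, with no call. Irgm1, an interferon-induced GTPase, was at least 3.49-fold lower on day 10, and 1.92-fold without replicate A. Gfpt2, of hexosamine synthesis, fell by 1.77, or by 1.12 without day 8 replicate A, and its call was lost without day 10 replicate A (−1.66, adjusted p = 0.0528).

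Markers of other cell types that a whole culture could hold are given beside these results, and their part in them was not tested. Among all genes 4.62% were called higher and 3.19% lower, or 3.49 and 2.31% without day 8 replicate A. Blood and globin genes had 3 rises and 0 falls of 10 tested, with a median of 1.00 (0.65 without day 8 replicate A), and mean levels of 7.03, 7.54 and 7.35 on day 10, against 4.23, 6.24 and 6.52 on day 8. The embryonic globin Hbb-bh1 read 12.62, 13.23 and 12.73 on day 10, against 2.95, 11.96 and 12.63 on day 8 (3.68, adjusted p = 0.16; 0.56 without replicate A). Hba-x differed by 3.72 (adjusted p = 0.14; 0.73 without replicate A), and the red cell factors Gata1, Klf1 and Tal1 were dim. Alas2, of heme synthesis in red cells, and Tfrc, the transferrin receptor, rose by 2.38 and 1.08, or by 1.91 and 1.08 without replicate A, and the Tfrc call was lost without day 8 replicate B (0.99). Smooth muscle genes had 3 rises and 0 falls of 12 (2 and 0 without day 8 replicate A), a median of 0.67 (0.13 without it) and mean levels of 7.34, 7.47 and 7.13 on day 10, against 5.30, 6.32 and 6.91 on day 8. Cnn1, smooth muscle calponin, was dim on day 8 and at least 2.95-fold higher on day 10 (2.75; 2.74 without replicate A). Acta2, smooth muscle actin, read 12.25, 12.96 and 12.47 on day 10, against 7.59, 10.80 and 12.30 on day 8, without a call (2.33, adjusted p = 0.0782; 1.01 without replicate A). Mrvi1 rose by 1.15 (adjusted p = 0.0456), and its call was lost without day 8 replicate A (0.98, adjusted p = 0.161) or B (1.09, adjusted p = 0.104) and without day 10 replicate A (0.79, adjusted p = 0.176) or B (1.06, adjusted p = 0.118).

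Matrix and mesenchyme genes had 9 rises and 1 fall of 31 tested (7 and 3 without day 8 replicate A), with a median of 0.43 and 0.24 without it. Eln, elastin, read 6.44, 5.97 and 5.84 on day 10, against 2.59, 3.45 and 4.02 on day 8 (2.73; 2.35 without replicate A). Lox, which cross-links elastin and collagen, was dim on all day 8 arrays and at least 1.78-fold higher on day 10 (2.56 with and without replicate A). Tnc, tenascin C, rose by 2.86 (adjusted p = 0.0477), and its call was lost without day 8 replicate A (1.44, adjusted p = 0.133), day 10 replicate A (3.03, adjusted p = 0.0882), B (2.64, adjusted p = 0.122) or C (2.91, adjusted p = 0.0927). Hapln1, a hyaluronan link protein of the cardiac jelly, was the fall, by 1.45 (adjusted p = 0.0222), and its call was lost without day 8 replicate A (−1.12, adjusted p = 0.1) or B (−1.25, adjusted p = 0.0744) and without day 10 replicate A (−1.21, adjusted p = 0.0878) or C (−1.36, adjusted p = 0.0637). Epicardium and mesothelium genes split, with 3 rises and 2 falls of 13 (3 and 1 without day 8 replicate A). Wt1, the epicardial zinc finger factor, read 8.07, 7.04 and 7.01 on day 10, against 3.31, 4.50 and 3.92 on day 8 (3.47, adjusted p = 1.59e-05; 3.17 without replicate A). The mesothelial uroplakins Upk3b and Upk1b rose by 2.99 and 2.24, or by 1.61 and 1.40 without replicate A, and the Upk3b call was lost without day 10 replicate A (3.00, adjusted p = 0.0747), B (3.15, adjusted p = 0.0581) or C (2.81, adjusted p = 0.0814). Bnc2 fell by 1.62 (−1.70 without replicate A). Lrrn4 fell by 1.61 (adjusted p = 0.0288), and its call was lost without day 8 replicate A (−1.06, adjusted p = 0.116), day 10 replicate A (−1.69, adjusted p = 0.0592), B (−1.54, adjusted p = 0.0761) or C (−1.59, adjusted p = 0.0656).

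The remaining cell type lists gave a few calls each, of 4 to 15 genes tested, against 4.62% called higher and 3.19% called lower over all genes. Skeletal muscle had 1 rise of 4 tested, Cav3, the caveolin of muscle membranes (1.63 with and without replicate A), while 13 of the 17 listed, among them the lineage factors Myod1, Myf5 and Myog, were dim. Endothelium had 2 rises and 0 falls of 12, Mmrn2 and Tek (1 and 0 without day 8 replicate A), with a median of 0.13 and −0.17 without it. The Mmrn2 rise was at least 2.01-fold (1.35; 1.26 without replicate A). That of Tek, the angiopoietin receptor, was 2.09 (adjusted p = 0.0372), and its call was lost without day 8 replicate A (1.08, adjusted p = 0.0694), day 10 replicate A (2.21, adjusted p = 0.0708), B (1.93, adjusted p = 0.102) or C (2.12, adjusted p = 0.0756). Visceral endoderm, yolk sac and liver genes had 1 rise and 2 falls of 11 with and without replicate A, with medians of 0.20 and −0.04 and with 19 of 32 dim, among them Alb, Foxa2, Sox17 and Hnf4a. Apoa1 rose by 2.84 (2.62 without replicate A), Tdo2 fell as above, and Lrp2, the endocytic receptor megalin, fell by 1.61 (adjusted p = 0.0386; −2.09 without replicate A). The Lrp2 call was lost without day 8 replicate B (−1.35, adjusted p = 0.118) or C (−1.38, adjusted p = 0.103), or day 10 replicate A (−1.07, adjusted p = 0.151). Ttr, transthyretin, read 7.60, 8.50 and 10.07 on day 10 and 3.75, 9.78 and 7.74 on day 8, which overlap (1.63; −0.04 without replicate A). Of the 11 tested genes of this list only Tdo2 and Lrp2 were called lower. Neural genes had 2 rises of 10 (1 without replicate A), Map2 (1.58; 1.53 without replicate A) and Stmn2 (2.60, adjusted p = 0.0218), whose call was lost without day 8 replicate A (2.36, adjusted p = 0.0828) or day 10 replicate A (2.43, adjusted p = 0.0712). Epithelium had 1 rise of 15, Dsc2, a desmosomal cadherin also found in cardiomyocytes (1.51; 1.37 without replicate A).

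**Figure D5:**
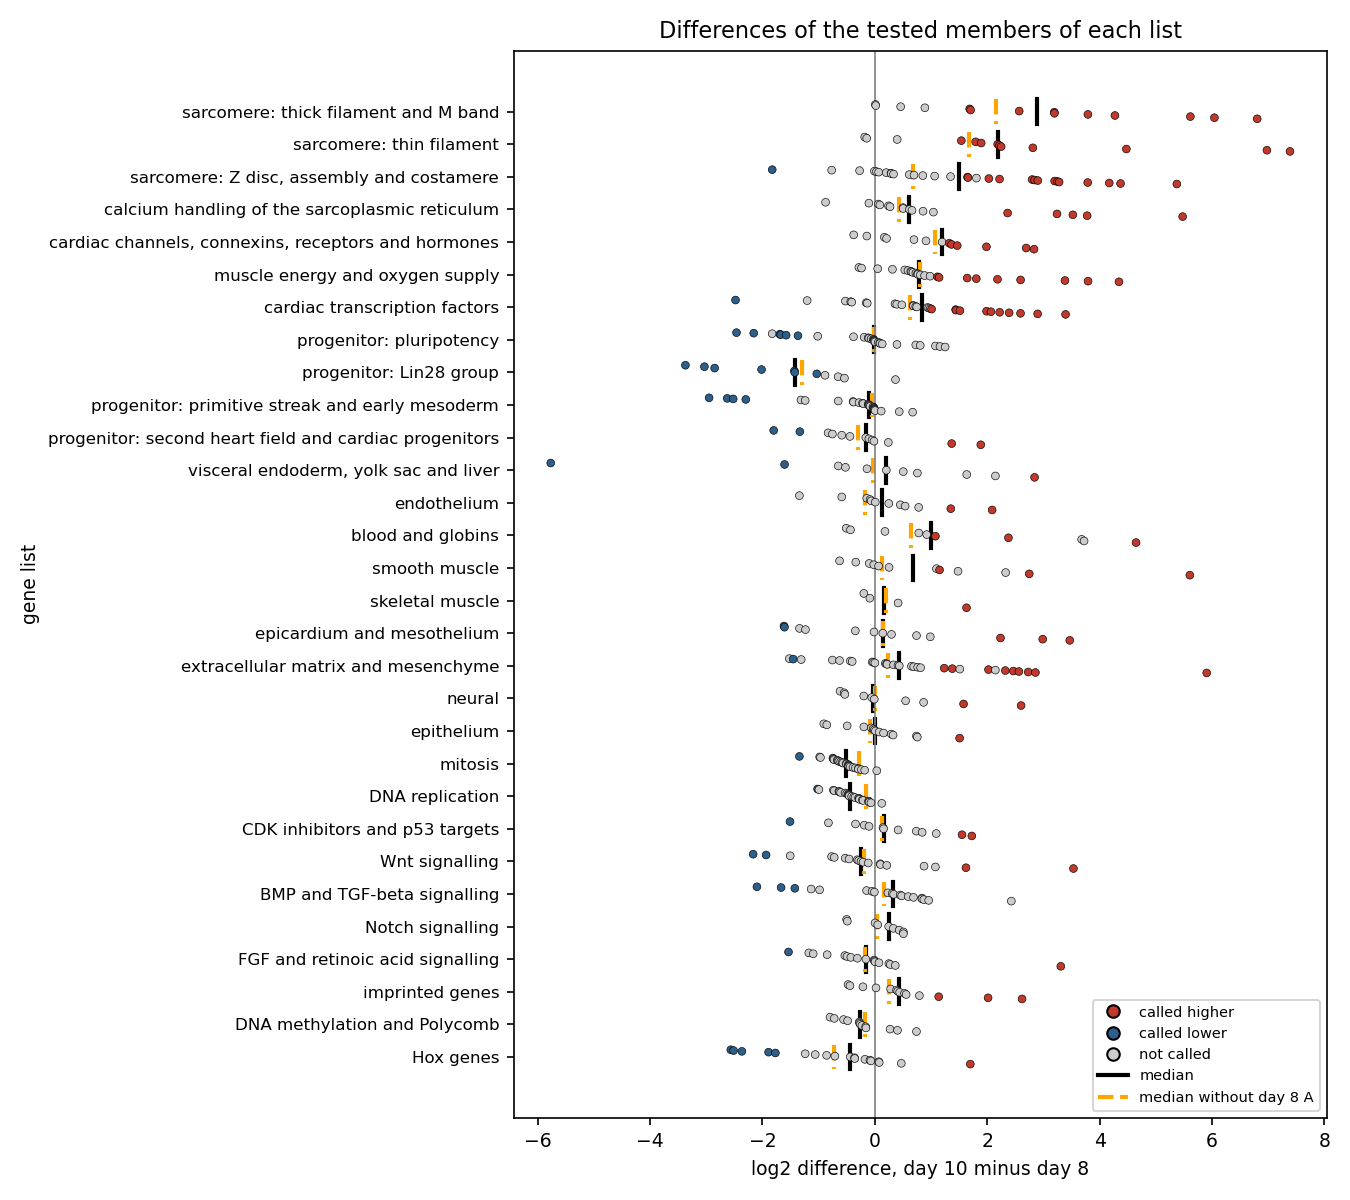
Log2 difference, day 10 minus day 8 (x axis), of each tested member (points) of the gene lists (rows); red points were called higher, blue points called lower and grey points not called, the black tick is the median of the list and the orange dashed tick its median without day 8 replicate A. The 3 sarcomere lists are shifted to the right as a whole, with medians of 2.88, 2.19 and 1.50, and the Lin28 list to the left with −1.42, while many other lists are centred near 0.

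Genes of the cell cycle were shifted by little, and over all genes 5941 of 10802 differences were negative. Of 27 tested mitosis genes 26 were lower on day 10, with a median of −0.51 (−0.28 without day 8 replicate A). Lower at an unadjusted limma p under 0.05 were 21 of the 27, and the share of all genes at that threshold was not counted. Only Ect2, a regulator of cytokinesis, was called (−1.34, adjusted p = 0.00612; −1.02 without replicate A). Of 26 DNA replication genes 25 were lower, with a median of −0.44 (−0.16 without replicate A), and 10 were lower at an unadjusted limma p under 0.05. Their mean levels were 8.80, 8.82 and 8.74 on day 10, against 9.71, 9.0 and 8.92 on day 8, so that day 8 replicate A was the highest. Cdt1, the licensing factor, was the only call (−1.02), and was lost without day 8 replicate A (−0.76, adjusted p = 0.00615), day 10 replicate A (−0.98) or day 10 replicate C (−0.97). CDK inhibitors and p53 targets had 2 rises and 1 fall of 13 (1 and 1 without replicate A). Gadd45b rose by 1.72 (1.47 without replicate A) and Sesn2 fell by 1.51 (−1.75 without replicate A). Perp rose by 1.55 (adjusted p = 0.0432), and its call was lost without day 8 replicate A (1.13, adjusted p = 0.18) or B (1.54, adjusted p = 0.0865) and without day 10 replicate A (1.38, adjusted p = 0.129) or B (1.43, adjusted p = 0.113).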

How the data were processed

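RNA was measured on 16 Affymetrix mouse arrays, and the comparison of day 10 with day 8 used 6 of them. The deposited log2 values were made by the authors with GCRMA, per the submitters' processing notes; this method corrects background by probe sequence, normalizes arrays together and summarizes each probe set. Its version is not given in the sources used here. The base of the logarithm was read from the range of the values, any centring is not stated, and array medians ran from 3.16 to 3.27. Values were used as deposited, so low signals are compressed toward the floor of the method and differences of dim genes are understated. All 16 columns of the table matched a sample title, and 0 were left unmapped. The number of arrays limits the precision.

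Probe sets naming a single gene were kept if above log2 4 on at least 2 of 16 arrays, and each gene was read from the one with the highest mean. Probe sets of close paralogs can bind each other's transcripts. In limma 3.58.1 under R 4.3.3, lmFit gave each group its own mean over all 16 arrays and eBayes moderated the variances. There were 10 residual degrees of freedom beside a prior of 3.53, and 9 beside 3.67 without day 8 replicate A, with Benjamini-Hochberg adjustment over 10802 genes. The procedure was tested on simulated data. Where a group was dim on all its arrays, the other group's mean was set against the cutoff itself, which gives a lower bound of the fold. Replicate letters recur across days. Deviations of same-lettered arrays correlated at r = 0.04, −0.20 and −0.21, and those of differently lettered arrays at −0.12 to 0.34. With so few arrays per day, whose deviations depend on each other, these values cannot decide whether the letters pair the cultures. The fit has no block, and counts with the replicate letter as a block are given below. Genes are named by a rule: the markers Actc1, Myh6, Lin28a and Tdo2, any sarcomere or progenitor member, the largest non-overlapping changes with and without day 8 replicate A, the largest among genes dim on one day, those that moved most without replicate A, and up to 4 called members each way of every other list, with further cell type markers whatever their values. Members, lists and tests were chosen with earlier results of these data known. Alternatives changed the filter, normalization, probe set choice, variance model, thresholds and arrays. Motifs were searched in RefSeq promoter windows of GRCm38.p6.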

Additional observations from a re-analysis of the deposited data

How the results depend on the processing

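Among the named genes that were called, the probe set that stands for the gene kept its sign under the alternatives run; other probe sets of Aplnr, Mycn and Ttn had the opposite sign (0.07, 0.04 and −0.01). All genes called higher and lower numbered 499 and 345, sarcomere genes higher 34, progenitor genes lower 19, and genes dim on one day 90. Leaving out 1 array in turn gave 363 to 621 higher, 249 to 458 lower, 27 to 38 sarcomere genes, 15 to 20 progenitor genes and 90 to 150 genes dim on one day. Fitting the 6 arrays alone, with fewer degrees of freedom, gave 218, 150, 14, 9 and 64. Every single-gene probe set gave 782 and 539, with 151 dim on one day, since more features were tested. The adjusted p alone, with no minimum difference, gave 823 and 887. A minimum of 2 log2 gave 197 and 50, 10 progenitor genes and 52 dim on one day. Values under 4 set to 4 gave 435 and 320, with 55 dim on one day. Without a filter there were 397 and 281, with 26 sarcomere and 16 progenitor genes. The other settings (filter at log2 6, quantile normalization, common median, robust variance trend, array weights, mean of probe sets, no _x_at or _s_at probe sets) gave 443 to 579 higher and 307 to 364 lower. With the replicate letter as a block, the counts were 508 and 356, with 33 sarcomere and 19 progenitor genes and 90 dim on one day. For the 626 calls without day 8 replicate A 3 alternatives were chosen after seeing the data: the 5 arrays alone gave 286, every probe set 877 and a replicate block 568. Of 136 named genes called, 107 kept the call without day 8 replicate A, 122 without B and 133 without C, 99, 109 and 118 without day 10 replicates A, B and C, and 102 without a filter. The cause of these differences was not tested.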

Other observations

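Signalling lists gave a few calls each. Over all genes 4.62% were called higher and 3.19% lower, or 3.49 and 2.31% without day 8 replicate A. Of 19 tested Wnt genes 2 rose and 2 fell in both fits, with a median of −0.25 (−0.20 without replicate A). Sfrp1, a secreted Wnt antagonist, read 10.55, 10.74 and 10.50 on day 10, against 4.85, 7.96 and 8.37 on day 8 (3.53, limma adjusted p = 0.00257; 2.43 without day 8 replicate A). Lef1, a factor through which Wnt signals act, read 4.74, 5.22 and 5.30 on day 10, against 8.45, 6.84 and 6.47 on day 8 (−2.17, adjusted p = 0.0031; −1.57 without replicate A). Another probe set of Lef1 gave −0.72, with no call. Wnt2 rose by 1.62 (1.20 without day 8 replicate A), and its call was lost without day 10 replicate A (1.31, adjusted p = 0.0517). The antagonist Dkk1 fell by 1.94 (adjusted p = 0.0209), and its call was lost without day 8 replicate A (−1.74, adjusted p = 0.0813) or day 10 replicate A (−1.41, adjusted p = 0.0859). Of 20 BMP and TGF-beta genes 3 fell and 0 rose (2 and 0 without replicate A), with a median of 0.32 and 0.15 without it. The homeobox targets Msx1 and Msx2 read 6.78, 6.50 and 6.07, and 6.53, 6.96 and 7.09 on day 10, against 9.24, 8.39 and 8.02, and 9.51, 8.24 and 7.84 on day 8. Msx1 fell by 2.10 (−1.75 without replicate A) and the ligand Bmp2 by 1.42 (−1.37 without replicate A). Msx2 fell by 1.67 (adjusted p = 0.0298), and its call was lost without day 8 replicate A (−1.18, adjusted p = 0.13), day 10 replicate A (−1.50, adjusted p = 0.0956) or day 10 replicate B (−1.72, adjusted p = 0.0618). Of 17 FGF and retinoic acid genes 1 rose and 1 fell in both fits. The retinoic acid receptor Rarb was dim on all day 8 arrays and read 5.98, 5.82 and 5.77 on day 10, at least 3.63-fold higher (3.31; 3.28 without replicate A). Its relative Rarg read 4.63, 3.79 and 4.05 on day 10, against 6.26, 5.80 and 5.02 on day 8 (−1.54; −1.25 without replicate A). Another probe set of Rarg gave −0.75, with no call. Notch genes and genes of DNA methylation and Polycomb had 0 calls by limma, of 9 and 13 tested. At an unadjusted limma p under 0.05, 2 Notch genes were higher and 1 lower, and 1 gene of DNA methylation and Polycomb was higher and 3 lower. The shares of all genes at that threshold were not counted, so these counts have no background to be set against.

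Hox genes, which pattern the body axis, fell in 5 of 19 tested and rose in 1, with a median of −0.44. Without day 8 replicate A, 2 fell and 1 rose, with a median of −0.73. Hoxb4 read 7.94, 7.72 and 7.41 on day 10, against 5.02, 6.51 and 6.45 on day 8 (1.70, adjusted p = 0.00513; 1.21 without replicate A). The more posterior Hoxc8 read 2.76, 2.74 and 2.79 on day 10, against 6.34, 5.74 and 3.90 on day 8, and Hoxb9 3.51, 3.47 and 4.47 on day 10, against 5.73, 5.98 and 5.42 on day 8. They fell by 2.56 and 1.89, or by 2.06 and 1.88 without replicate A. Hoxa9 and Hoxd9 fell by 2.51 and 2.37. The Hoxa9 call was lost without day 8 replicate A (−2.08, adjusted p = 0.125) or B (−2.07, adjusted p = 0.102) and without day 10 replicate A (−2.22, adjusted p = 0.103) or B (−2.23, adjusted p = 0.0957). The Hoxd9 call was lost without day 8 replicate A (−1.74, adjusted p = 0.104) or B (−2.12, adjusted p = 0.0709) and without day 10 replicate A (−2.20, adjusted p = 0.0753) or B (−2.12, adjusted p = 0.0763). Of 14 imprinted genes 3 rose and 0 fell (1 and 0 without replicate A), with a median of 0.42 and 0.26 without it. Dlk1, a Notch-related growth regulator, read 13.07, 12.83 and 13.28 on day 10, against 7.75, 11.68 and 11.89 on day 8 (2.62, adjusted p = 0.0323; 1.27 and adjusted p = 0.00301 without replicate A). Its call was lost without day 10 replicate A (2.62, adjusted p = 0.0794), B (2.73, adjusted p = 0.0634) or C (2.51, adjusted p = 0.0816). Plagl1 and Igf2r rose by 2.01 and 1.14, and another probe set of Plagl1 gave 4.07. The Plagl1 call was lost without day 8 replicate A (0.94) and without day 10 replicate A (2.09, adjusted p = 0.0821), B (1.99, adjusted p = 0.0906) or C (1.96, adjusted p = 0.092). The Igf2r call was lost without day 8 replicate A (0.73, adjusted p = 0.0778) or day 10 replicate B (1.03, adjusted p = 0.0725) or C (1.10, adjusted p = 0.0584).

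Probe sets outside the tested genes were compared without a test. Of 535 that name several genes and lay above the cutoff on enough arrays, 5 had every day 10 array at least 1 log2 above every day 8 array (0.935%) and 0 the reverse. Of 1685 without a gene name here, 10 did so (0.593%) and 8 the reverse (0.475%). Among the genes tested the shares were 1.85 and 0.704%.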
